A study of Mus musculus with 12 samples.

Results

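The contractile genes that set fast and slow skeletal muscle fibers apart were measured in subcutaneous tumors of mouse lung cancer cells. The set held 10 of the 15687 genes in the expression table. It was given as a list of gene symbols, with 6 genes of fast fibers (*Myh1*, *Myh2*, *Myh4*, *Tnnt3*, *Tnni2* and *Tnnc2*) and 4 of slow fibers (*Myh7*, *Tnnt1*, *Tnni1* and *Tnnc1*), under a rule that used no measured value but was drawn up with earlier results of these data known. All 10 had a row in the table and all 10 passed the filter on low values.

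Tumors grew from mTc11 mouse lung cancer cells, 1000000 of which were placed under the skin of male C57BL6/J mice aged 8 weeks, and were taken 24 days later. Cells of the CTL group carried a scrambled short hairpin RNA (shControl, n = 6 tumors). Cells of the *Filip1l*-knockdown (KD) group carried a hairpin against *Filip1l* (Filip1l KD, n = 6 tumors). Both groups came from puromycin-selected mixed clones made with lentivirus. The study used different *Filip1l* hairpin sequences (targets a and c) in this cell line, and the labels do not say which of them each tumor carried. RNA came from the whole tumor with its host tissue. In such bulk samples, fewer cells of a type and less RNA per cell cannot be told apart.

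Striated muscle contracts when calcium binds troponin C, which moves troponin I and troponin T on the thin filament and frees actin for the myosin heads. Fast and slow fibers build this machine from different genes. The type of a fiber is named by its myosin heavy chain, with *Myh7* in type I, *Myh2* in type IIa, *Myh1* in type IIx and *Myh4* in type IIb fibers. *Myh7* and *Tnnc1* are not restricted to skeletal muscle, since the heart also uses them, whereas *Tnnt1* and *Tnni1* mark slow skeletal fibers. Muscles under the skin and of the body wall of the mouse are mostly fast.

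Values were normalized counts, which are reads divided by a size factor for each tumor and are not corrected for gene length. The tumors held from 17834745 to 32419578 reads on the listed genes, with CTL 5 the shallowest. *Filip1l* itself averaged 2311 ± 211 (SD, n = 6) in CTL and 1924 ± 165 (SD, n = 6) in KD tumors, a log2 fold change of -0.26 (limma adjusted p = 0.00998), and its ranges overlapped. Of the epithelial markers, *Epcam* and *Krt8* were abundant in all 12 tumors (3817 to 20214 and 47665 to 146922). The lung lineage factor *Nkx2-1* lay between 0.947 and 90.6, and the alveolar surfactant gene *Sftpc* was at 0 in 4 tumors and at most 60.5.

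Of the 10 fiber genes, 9 were higher in KD tumors, 5 of the 6 fast genes and all 4 slow genes, and none was lower. A gene was called when its limma p-value, adjusted by the Benjamini-Hochberg method over all genes, was under 0.05 and its absolute log2 fold change was over 1. By that rule 6.2% of all genes were called higher and 3.97% lower. By the adjusted p alone 21.1% (3314 genes) were higher, and 3252 genes were lower. The median log2 fold change was 1.84 over the 10 fiber genes, 1.79 over the fast and 1.97 over the slow genes, against 0.0078 over all genes. Separation was not complete for any of them. The groups overlapped for all 10 genes, whereas in 10.6% of all genes every KD tumor lay above every CTL tumor.

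**Figure D1:**
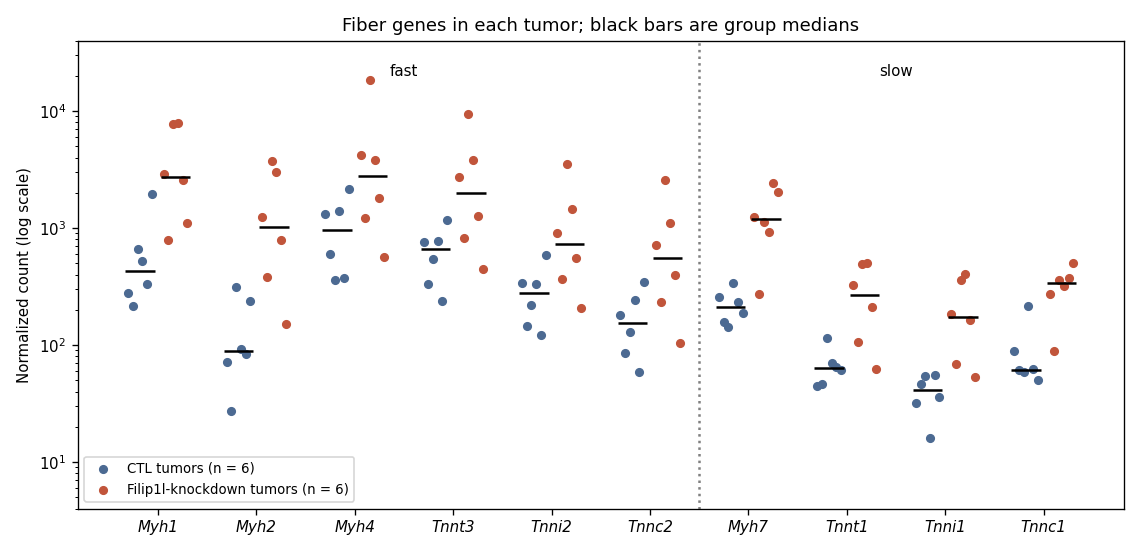
Normalized counts (log scale) of the 10 fiber genes in each CTL and *Filip1l*-knockdown tumor, with black bars at the group medians. The knockdown medians lay above the CTL medians for every gene, and at least 1 knockdown tumor of every gene lay within the CTL range.

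The fast myosin heavy chains *Myh2*, *Myh1* and *Myh4* lie side by side on mouse chromosome 11 (GRCm38, plus strand). *Myh2* spans chr11:67171027-67197517, *Myh1* chr11:67200052-67224575 and *Myh4* chr11:67238029-67260446. *Myh7* lies apart on the minus strand of chr14:54970684-54994626. The 300 bases around their starts in RefSeq (GRCm38.p6, from 250 before to 50 after the start) are shown because the 3 fast genes share a run of bases there. Capitals mark that run of 20 bases, which *Myh7* lacks.
Myh2 (chr11:67170777-67171076, plus strand): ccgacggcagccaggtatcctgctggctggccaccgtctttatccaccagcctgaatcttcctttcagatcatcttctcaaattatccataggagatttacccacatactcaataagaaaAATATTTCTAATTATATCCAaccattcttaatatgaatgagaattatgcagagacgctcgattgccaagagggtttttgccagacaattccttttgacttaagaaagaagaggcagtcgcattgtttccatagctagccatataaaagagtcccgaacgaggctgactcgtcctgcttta
Myh1 (chr11:67199852-67200151, plus strand): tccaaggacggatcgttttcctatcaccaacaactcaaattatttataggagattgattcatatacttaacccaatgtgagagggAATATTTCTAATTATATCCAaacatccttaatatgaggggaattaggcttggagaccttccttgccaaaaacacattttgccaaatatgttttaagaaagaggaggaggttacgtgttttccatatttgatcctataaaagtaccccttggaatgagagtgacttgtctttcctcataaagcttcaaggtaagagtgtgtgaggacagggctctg
Myh4 (chr11:67237562-67237861, plus strand): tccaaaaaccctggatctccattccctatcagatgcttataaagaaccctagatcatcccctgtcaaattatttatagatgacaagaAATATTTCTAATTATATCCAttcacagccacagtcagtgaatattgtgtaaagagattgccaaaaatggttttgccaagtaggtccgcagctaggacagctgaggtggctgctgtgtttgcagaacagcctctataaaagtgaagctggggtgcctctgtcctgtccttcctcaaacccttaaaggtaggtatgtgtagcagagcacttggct
Myh7 (chr14:54994577-54994876, minus strand): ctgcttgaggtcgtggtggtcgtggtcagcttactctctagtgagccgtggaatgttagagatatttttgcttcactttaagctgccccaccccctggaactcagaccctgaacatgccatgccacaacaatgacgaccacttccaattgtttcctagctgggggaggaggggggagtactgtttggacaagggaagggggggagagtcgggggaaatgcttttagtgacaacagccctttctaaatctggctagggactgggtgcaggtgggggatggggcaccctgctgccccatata

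The shared run AATATTTCTAATTATATCCA began 130 bases before the start in *Myh2*, 165 before it in *Myh1* and 163 before it in *Myh4*. Among 32851 RefSeq promoters, searched on both strands, these 3 alone held it. The letters TATAAA, the core of a TATA box, occurred in the promoters of *Myh1*, *Myh2*, *Myh4* and *Tnnt1* and in 13.6% of all promoters. The E-box letters CANNTG, to which myogenic factors such as MyoD can bind, occurred in 6 of the 8 fiber genes with a listed promoter and in 72.3% of all promoters. The narrower form CAGCTG, which also counts as a CANNTG match, occurred in *Myh4* and *Tnni1* and in 16.3% of all promoters. *Tnnt3* and *Tnni2* were the members with no listed promoter. These matches describe letters only.

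*Myh1*, the IIx heavy chain, rose in KD tumors. It read 278, 216, 664, 527, 335 and 1941 in CTL tumors 1 to 6, and 2881, 790, 7672, 7896, 2554 and 1094 in KD tumors 1 to 6. CTL 6 was the highest control and lay above KD 2 and KD 6, while the other 4 KD tumors lay above every control. The groups differed by 2.46 on the log2 scale (SE 0.62, limma adjusted p = 0.00544).

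*Myh2*, the IIa heavy chain, showed the largest log2 fold change of the 10, 3.16 (SE 0.75, limma adjusted p = 0.00382). Its CTL values were 72.0, 27.5, 315, 92.7, 83.7 and 240, and its KD values were 1248, 378, 3762, 3003, 796 and 150. Only KD 6 fell inside the control range, and the other 5 KD tumors stood above it.

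*Myh4*, the IIb heavy chain, did not pass the test. It read 1326, 604, 362, 1399, 370 and 2175 in CTL and 4179, 1207, 18442, 3812, 1795 and 563 in KD tumors. KD 3 held the highest value of any fiber gene in any tumor, 3 KD tumors lay above all controls, and KD 6 lay below the CTL median of 965. The log2 fold change was 1.68 with a 95% confidence interval from 0.16 to 3.20 (limma adjusted p = 0.0719). The count tests run on recovered whole reads called it, at 2.25 by edgeR (adjusted p = 0.0274) and 2.27 by DESeq2 (adjusted p = 0.0107). It also passed without CTL 6 (1.96, limma adjusted p = 0.0486) or without KD 6 (2.13, limma adjusted p = 0.0201).

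The fast troponins rose in near unison. *Tnnt3*, fast troponin T, which anchors the complex to tropomyosin (chr7:142498836-142516009), read 763, 331, 548, 772, 239 and 1181 in CTL and 2722, 817, 9477, 3843, 1278 and 447 in KD tumors. Its log2 fold change was 1.76 (SE 0.63, limma adjusted p = 0.0358). KD 1, 3, 4 and 5 lay above all controls, and KD 2 and KD 6 fell among them.

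*Tnni2*, fast troponin I, the inhibitory subunit, lies at chr7:142441808-142444410, upstream of *Tnnt3* on the same strand. It read 342, 144, 220, 332, 122 and 585 in CTL and 915, 366, 3539, 1457, 559 and 205 in KD tumors. KD 1, 3 and 4 lay above all controls. The difference was 1.59 on the log2 scale (SE 0.59, limma adjusted p = 0.0412).

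*Tnnc2*, fast troponin C, the calcium sensor (chr2:164777161-164779967, minus strand), read 182, 85.2, 129, 240, 58.3 and 347 in CTL and 716, 235, 2571, 1108, 400 and 103 in KD tumors. The order of the KD tumors, from KD 3 down to KD 6, was that of *Tnnt3* and *Tnni2*. Its log2 fold change was 1.82 (SE 0.66, limma adjusted p = 0.0381). *Tnnc2* shares 592 exonic bases with *Ube2c* on the opposite strand, and the strand setting of the counting is not given in the sources used here. *Ube2c* differed far less between groups (1725 ± 270 and 2126 ± 213, SD, n = 6 each) and did not follow *Tnnc2* across tumors (r = -0.08, 12 tumors).

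The calls of the 3 fast troponins rested on small margins. When each tumor was left out in turn, *Tnnt3* kept its call in 6 of 12 fits, *Tnnc2* in 4 and *Tnni2* in 3, with adjusted p-values up to 0.0808, 0.0853 and 0.0900. Without KD 3, the tumor with the highest fast troponins, the log2 fold changes were 1.30, 1.36 and 1.15. *Myh1* and *Myh2* kept their calls in all 12 fits.

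Of the slow genes, *Myh7*, the type I and cardiac beta heavy chain, gave the smallest adjusted p of the 10. It read 255, 156, 143, 342, 232 and 190 in CTL and 1250, 274, 1118, 929, 2448 and 2034 in KD tumors. KD 2 alone fell inside the control range, and KD 5 and KD 6 were the highest. The log2 fold change was 2.38 with a 95% confidence interval from 1.48 to 3.29 (limma adjusted p = 0.000420).

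*Tnnc1*, the troponin C of slow and cardiac muscle, lies on the same chromosome at chr14:31208312-31211729. It read 88.0, 60.6, 58.3, 215, 62.7 and 50.3 in CTL and 273, 89.5, 357, 319, 374 and 501 in KD tumors. Again KD 2 alone fell inside the control range and KD 6 was the highest. Its log2 fold change was 1.86 (SE 0.40, limma adjusted p = 0.00205). The 452 genes of chromosome 14 with at least 50 normalized counts on average had a median log2 fold change of 0.39, against 0.0020 to 0.04 for the other 4 chromosomes that hold members. After that median was removed in each tumor, *Myh7* and *Tnnc1* were still called, at 2.00 (limma adjusted p = 0.00203) and 1.48 (limma adjusted p = 0.0112).

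*Tnnt1*, slow skeletal troponin T (chr7:4504570-4516382, minus strand), read 45.0, 46.4, 116, 70.8, 64.2 and 61.7 in CTL and 327, 105, 492, 497, 211 and 62.9 in KD tumors. *Tnni1*, slow skeletal troponin I (chr1:135779434-135810989), read 32.0, 46.4, 54.4, 15.9, 55.3 and 36.1 in CTL and 184, 68.7, 360, 407, 163 and 53.3 in KD tumors. Unlike *Myh7* and *Tnnc1*, both were lowest in KD 6 among KD tumors and highest in KD 4. The log2 fold change was 1.77 for *Tnnt1* (SE 0.46, limma adjusted p = 0.00678) and 2.07 for *Tnni1* (SE 0.48, limma adjusted p = 0.00321). All 4 slow genes kept their calls whichever tumor was left out.

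For each of the 10 genes the KD tumors spread over a wider fold range than the controls did. The highest KD value of a fast gene was 9.99 to 32.7 times the lowest, and that of a slow gene 5.59 to 8.94 times. Among CTL tumors these ratios were 4.78 to 11.5 for fast and 2.39 to 4.28 for slow genes.

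In 4 pairs, a fast gene was then set against its slow counterpart within the same tumor. This asks whether the makeup of the muscle signal differed along with its size. Of the fast heavy chains, only *Myh4* was paired with *Myh7*. The log2 fold changes of *Myh1* (2.46) and *Myh2* (3.16) were above that of *Myh7* (2.38), and that of *Myh4* (1.68) was below it. The log2 ratio of *Myh4* to *Myh7* was 2.37, 1.94, 1.33, 2.03, 0.68 and 3.51 in CTL and 1.74, 2.14, 4.04, 2.04, -0.45 and -1.85 in KD tumors. The KD tumors spanned the whole control range and went beyond it on both sides. The group means differed by -0.70 (exact two-sided permutation p = 0.481), and the 95% interval from inverting the test ran from -2.79 to 1.36.

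For troponin T the difference in log2 ratio was -0.0045 (exact permutation p = 0.991, 95% interval from -1.08 to 1.07). For troponin I it was -0.48 (exact permutation p = 0.437, 95% interval from -1.88 to 0.90), and for troponin C -0.04 (exact permutation p = 0.970, 95% interval from -1.90 to 1.64). Adjusted over the 4 ratios, the p-values ran from 0.961 to 0.991. No difference was detectable in these 4 fast to slow ratios, and *Myh1* and *Myh2* were not part of them. The intervals are wide enough to hold a shift of 1 log2 unit either way for every pair except a fast-ward shift of troponin I.

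The mean log2 level of the 6 fast genes minus that of the 4 slow genes was 2.11, 1.21, 1.92, 2.05, 0.92 and 3.52 in CTL tumors. It was 2.19, 2.22, 3.53, 2.53, 1.25 and 0.35 in KD tumors. The group means were 1.95 ± 0.91 and 2.01 ± 1.10 (SD, n = 6 each). KD 6 had the lowest difference of all 12 tumors, and KD 3 and CTL 6 the highest.

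**Figure D2:**
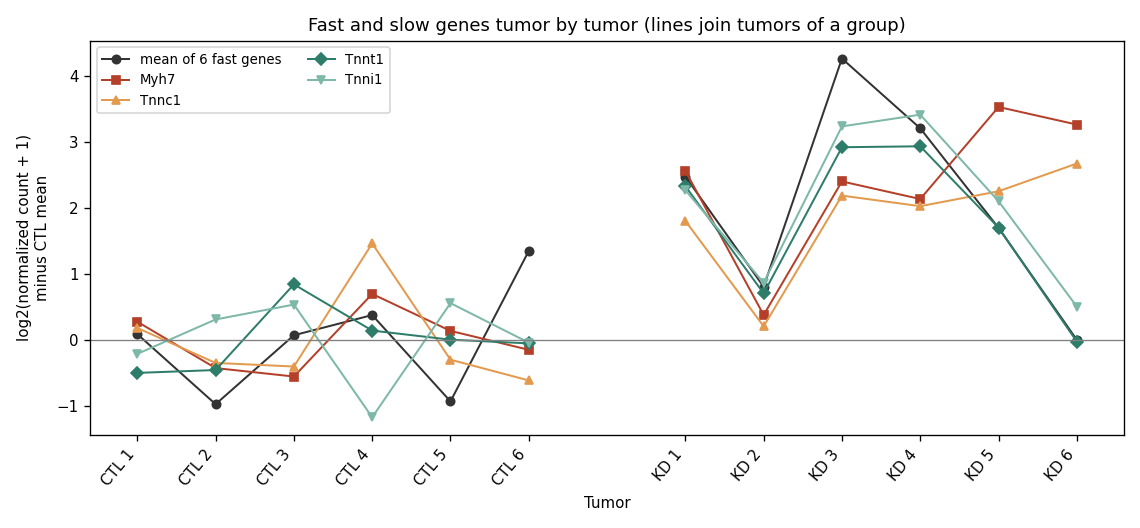
The mean log2(normalized count + 1) of the 6 fast genes and the level of each slow gene in every tumor, each less its CTL mean. *Tnnt1* and *Tnni1* followed the fast genes down to KD 6, where *Myh7* and *Tnnc1* stood near their highest values.

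Per kilobase of the longest annotated transcript, *Tnnt3* was the most abundant of the 10 in both groups, with medians of 608 normalized counts per kilobase in CTL and 1853 in KD tumors, and it stood above the next gene, *Tnni2*, in all 12 tumors. *Tnni2* was followed by *Tnnc2* in both groups. In the middle of the order the genes could not be ranked. *Tnnc1*, *Myh4* and *Myh1* had KD medians of 469, 466 and 447, and *Tnnc1* lay above *Myh4* in 2 of 6 KD tumors. In KD tumors *Tnnt1*, *Myh7* and *Myh2* followed at 254, 190 and 168, and *Tnni1* was last at 80.6. In CTL tumors *Myh2* was last at 14.5 and lay below *Tnni1*, the next above it, in 3 of 6 tumors.

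By the same measure, *Myh7* made up 12.8%, 15.2%, 9.40%, 14.1%, 22.2% and 4.05% of the 4 adult myosin heavy chains in CTL tumors. In KD tumors its share was 12.7%, 10.1%, 3.50%, 5.79%, 31.6% and 52.3%. KD 5 and KD 6 lay above all controls and KD 3 below all of them, while KD 1, 2 and 4 fell inside the control range. With the length of all annotated exons in place of the longest transcript, the share in KD 6 was 45.1%.

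The fast heavy chains also varied in their mix. *Myh4* held 24.6% to 69.1% of the adult myosin in CTL and 15.0% to 59.8% in KD tumors. *Myh1* held 14.3% to 44.7% and 24.6% to 50.4%, and *Myh2* 2.73% to 21.2% and 3.95% to 19.2%. CTL 3 stood apart among controls with the highest *Myh2* share.

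**Figure D3:**
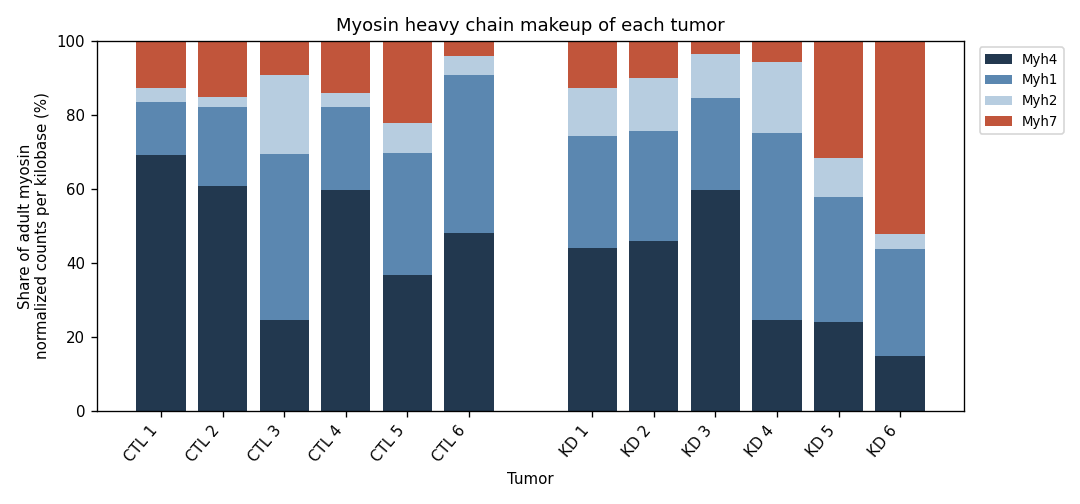
Share of *Myh4*, *Myh1*, *Myh2* and *Myh7* among the normalized counts per kilobase of the 4 adult myosin heavy chains in each tumor (stacked bars, percent). *Myh7* reached 31.6% in KD 5 and 52.3% in KD 6, and 22.2% at most in CTL tumors.

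The troponin pairs differed from one another in KD 6, while no group shift was detectable in their ratios. The *Tnnc1* share of troponin C averaged 35.5% in CTL and 36.3% in KD tumors. *Tnnc1* made up 31.9%, 40.8%, 30.5%, 46.5%, 51.1% and 12.3% of troponin C in CTL and 27.0%, 27.0%, 11.9%, 21.9%, 47.5% and 82.5% in KD tumors. The slow and cardiac form far exceeded the fast form in KD 6, while in CTL 5 both were close, and *Tnnc1* held 45.3% there with the length of all annotated exons. *Tnnt1* held 5.06% to 21.5% of the combined level of *Tnnt1* and *Tnnt3* in CTL and 5.03% to 14.4% in KD tumors. *Tnni1* held 1.96% to 15.8% of the combined level of *Tnni1* and *Tnni2* in CTL and 4.06% to 10.8% in KD tumors. In KD 6 these shares were 12.5% and 9.74%, inside the control range. The cardiac forms *Tnnt2* (mean normalized counts 2393 in CTL and 2712 in KD tumors) and *Tnni3* were left out of these shares.

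Across the 12 tumors, with the group means removed, the fast genes moved together. The 15 pairs of fast genes had Pearson's r from 0.66 to 0.99 (median 0.84), and *Tnnt3*, *Tnni2* and *Tnnc2* reached 0.99 with one another. *Tnnt1* and *Tnni1* followed the fast genes, with r from 0.46 to 0.92 (median 0.67), and each other at 0.83. *Myh7* and *Tnnc1* followed each other at 0.85 but not the fast genes, with r from -0.06 to 0.18, nor *Tnnt1* and *Tnni1*, with r from -0.11 to 0.10. These values describe 12 tumors that share 1 scaling per library, and no test was made of them.

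**Figure D4:**
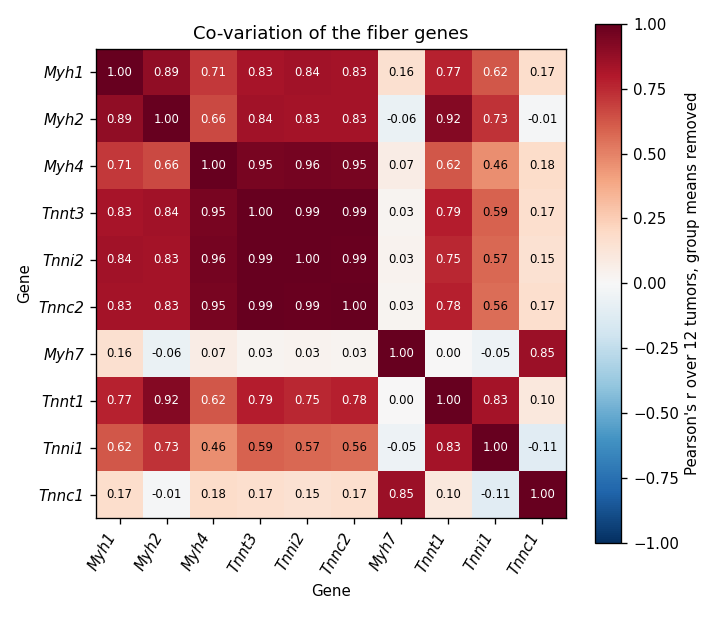
Pearson's r between the log2(normalized count + 1) of each pair of fiber genes over the 12 tumors after each group's mean was subtracted. The 6 fast genes with *Tnnt1* and *Tnni1* form a block of positive values, and *Myh7* with *Tnnc1* (0.85) stands outside it.

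Some genes of heart muscle tracked *Myh7* and *Tnnc1*, and others did so less or not at all. These were chosen after their values were seen and are given as a description. *Myh6*, the cardiac alpha heavy chain, correlated with *Myh7* at 0.93, cardiac actin *Actc1* at 0.93 and cardiac troponin I *Tnni3* at 0.83 over the 12 tumors. Their correlation with the mean of the fast genes was -0.24, 0.02 and -0.20. Cardiac troponin T *Tnnt2* correlated with *Myh7* at 0.57 and with *Tnnc1* at 0.75. It read 1787 to 3236 in CTL and 2316 to 2985 in KD tumors (log2 fold change 0.21, limma adjusted p = 0.216). The atrial light chain *Myl7* correlated with *Myh7* at -0.38 and with *Tnnc1* at -0.65.

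*Myh6* read 126, 70.1, 57.4, 183, 73.2 and 51.1 in CTL and 238, 18.7, 109, 52.9, 999 and 879 in KD tumors. It was high in KD 5 and KD 6, the same tumors in which *Myh7* was highest, and it did not pass the test between groups (log2 fold change 1.00, limma adjusted p = 0.352). *Actc1* likewise read 952 and 1030 in KD 5 and KD 6 and 58.3 to 359 in the other KD tumors (1.46, limma adjusted p = 0.0774). Among controls, CTL 4 was the highest tumor for *Myh6*, *Actc1*, *Tnni3*, *Myl2*, *Myl3*, *Myh7* and *Tnnc1*.

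*Tnni3* read 297.9 in KD 6 and 235 in KD 5, against 13.5 to 113 in the other KD tumors and 8.96 to 99.7 in CTL tumors. It did not pass the test (1.41, limma adjusted p = 0.139). The light chains of slow and cardiac muscle did pass, *Myl2* at 3.19 (limma adjusted p = 0.0272) and *Myl3* at 2.74 (limma adjusted p = 0.00190). *Myh7* and *Myh6* are near-identical in places. Of the windows of 150 bases in the longest *Myh7* transcript, 5.43% also occur in *Myh6*, so some reads cannot be assigned to either. The same share was 2.49% for *Myh1*, 2.06% for *Myh2* and 0.511% for *Myh4*, all with other skeletal heavy chains, and 0 for the 6 troponins. Antisense genes overlap exons of *Myh1* over 515 bases, of *Myh2* over 237 and of *Myh7* over up to 523, and without strand their reads cannot be told apart from those of the heavy chain.

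Embryonic and neonatal isoforms, which muscle uses during development and regeneration, moved with *Tnni1*. *Myh3*, *Myh8* and *Myl4* correlated with it at 0.91, 0.90 and 0.91 over the 12 tumors. *Myh3*, the embryonic heavy chain, went from 33.2 ± 21.5 in CTL to 487 ± 432 in KD tumors (SD, n = 6 each), higher by 3.55 on the log2 scale (limma adjusted p = 0.000766). *Myh8*, the perinatal heavy chain, rose by 3.15 on the log2 scale (limma adjusted p = 0.000531). *Myl7*, the atrial light chain, rose by 4.48 on the log2 scale (limma adjusted p = 1.11e-06) and followed neither *Myh7* (r = -0.38) nor the fast genes (r = -0.18). Of the 9 embryonic, neonatal and cardiac isoforms, 4 were called higher and none lower.

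The rest of the muscle program moved in the same direction. Of 15 other fast-fiber genes, 9 were called higher and none lower (median log2 fold change 1.76). They included the light chain *Myl1* (2.27, limma adjusted p = 0.00959), the Z-disc protein *Actn3* (2.14, limma adjusted p = 0.0104) and *Mybph* (1.99, limma adjusted p = 0.0242). Of 15 other slow-fiber genes, 12 were called higher and none lower (median 2.07), led by *Myl2*, *Myl3* and the Z-disc protein *Myoz2* (2.67, limma adjusted p = 0.000385). The most abundant gene of each list is used well beyond skeletal muscle. *Tpm1* gave -0.06 (limma adjusted p = 0.644) and *Tpm3* gave 0.20 (limma adjusted p = 0.0132), neither of them called.

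Of 24 genes used by both fiber types, 21 were called higher and none lower (median 2.04). They were led by the Z-disc gene *Ldb3* (2.79, limma adjusted p = 6.91e-05), the M-band gene *Myom2* (2.72, limma adjusted p = 0.000211) and mitochondrial creatine kinase *Ckmt2* (2.55, limma adjusted p = 0.00429). Skeletal actin *Acta1*, the most abundant, went from 1781 ± 1210 to 10422 ± 10599 (SD, n = 6 each), higher by 2.15 on the log2 scale (limma adjusted p = 0.0119). Its r with the mean of the fast genes was 0.996 over the 12 tumors.

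Because these genes rose with the fiber genes, the fit was repeated with the mean log2 level of the 24 as a covariate. That level averaged 6.45 ± 0.61 in CTL and 8.51 ± 1.30 in KD tumors (SD, n = 6 each), so it differed between the groups itself. With it, 1 of the 10 fiber genes remained called, *Myh7* at 2.05 (95% confidence interval 0.68 to 3.43, limma adjusted p = 0.0263). By the same rule and fit, 845 of all 15687 genes were called higher and 770 lower. *Tnnc1* gave 1.38 (limma adjusted p = 0.100), *Tnni1* 0.83, *Myh2* 0.53, *Tnnt1* 0.24 and *Myh1* 0.17, with limma adjusted p-values from 0.313 to 0.807 for the last 4. The fast troponins turned negative, *Tnnt3* at -0.78 (limma adjusted p = 0.0241), *Tnni2* at -0.76 (limma adjusted p = 0.0268) and *Tnnc2* at -0.81 (limma adjusted p = 0.0443), as did *Myh4* at -1.03 (limma adjusted p = 0.0926). In this fit 29.9% of all genes had an adjusted p under 0.05 in either direction, against 4 of the 10 fiber genes.

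**Figure D5:**
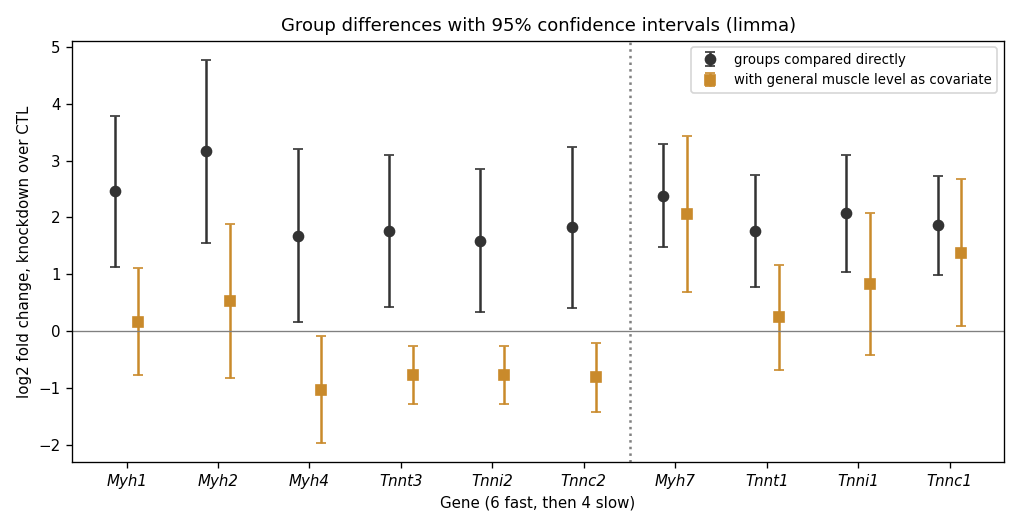
Log2 fold change of each fiber gene, knockdown over CTL, with 95% confidence intervals from limma, comparing the groups directly (circles) and with the mean log2 level of 24 general muscle genes as covariate (squares). All 10 circles lie above 0, and of the squares only those of *Myh7* and *Tnnc1* have an interval that lies above 0.

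Regulators of muscle gene expression were measured alongside. Of the 6 measured myogenic regulators, 3 were called higher and none lower (median log2 fold change 1.68), the master factor *Myod1* (3.14, limma adjusted p = 0.00890), the fusion gene *Mymk* (2.66, limma adjusted p = 0.00597) and *Myog* (2.36, limma adjusted p = 0.00904). Their KD means were low, at 23.1, 28.1 and 64.0, and the most abundant regulator, *Mef2c*, gave 0.38 (limma adjusted p = 0.303). *Myod1* had a CTL median of 0 and a CTL maximum of 5.29, and it read 1.04 in KD 2 and 1.75 in KD 6. Its fold change therefore depends on the added pseudocount. Of the 6 log2 fold changes, 5 were positive and 1 was negative. *Pax3*, *Pax7*, *Myf5*, *Mymx* and *Mstn* have no row in the table used here.

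Of 15 genes known to help set fiber type, 1 was called higher and 3 lower, against 6.2% and 3.97% of all genes, with a median log2 fold change of -0.26. *Sox6*, a repressor of slow genes, rose from 9.44 ± 4.04 to 34.0 ± 27.8 (SD, n = 6 each; log2 fold change 1.61, limma adjusted p = 0.0134). *Prox1*, which favours slow genes in muscle and is also a factor of lymphatic vessels and endoderm, fell from 377 ± 103 to 58.8 ± 42.4 (-2.88, limma adjusted p = 2.30e-05). *Ppargc1a*, the coactivator tied to slow oxidative fibers, fell from 120 ± 34.1 to 32.9 ± 13.5 (-1.88, limma adjusted p = 5.84e-05). *Eya1*, a cofactor that favours fast genes, fell by 1.70 on the log2 scale (limma adjusted p = 0.000101). All of these are also expressed outside muscle, and the cells that carried the change were not identified. *Tead1*, the most abundant of the list, gave -0.32 (limma adjusted p = 0.0109) and was not called.

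Of 9 genes of the motor endplate, the nerve contact of the fiber, 3 were called higher and 1 lower, against 6.2% and 3.97% of all genes. *Ache*, acetylcholinesterase, rose from 30.7 ± 11.4 to 367 ± 118 (SD, n = 6 each; 3.56, limma adjusted p = 1.12e-06), the receptor subunit *Chrnd* rose by 2.66 on the log2 scale (limma adjusted p = 0.00851) and *Rapsn* by 1.09 (limma adjusted p = 0.0263). The receptor subunit *Chrna1* fell by 1.16 on the log2 scale (limma adjusted p = 0.00211), and the most abundant gene, *Chrnb1*, gave -0.63 (limma adjusted p = 0.00109). Among KD tumors *Ache* was highest in KD 6 (526), where the mean of the fast genes was lowest, and it was lowest in KD 1 (163). The cells that carried these endplate gene changes were not identified.

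Markers of other tissues that border or enter the tumor moved less uniformly. Of 10 smooth muscle and pericyte markers, 2 were called higher, *Des* (2.04, limma adjusted p = 0.00358) and *Synpo2* (1.62, limma adjusted p = 0.00254), both of which striated muscle also expresses, and *Des* also stands in the list of 24. By the adjusted p alone 2 of the 10 were higher and 3 lower, among the latter smooth muscle actin *Acta2* (-0.61, limma adjusted p = 0.0145). Of the 10 log2 fold changes, 5 were positive and 5 negative. Over all genes 6.2% were called higher and 3.97% lower. Of 7 adipocyte markers, 2 were called higher, *Cidec* (1.15, limma adjusted p = 0.000186) and *Fabp4* (1.02, limma adjusted p = 0.000935). The adipocyte-defining *Adipoq* was at most 29.9 in CTL and 29.2 in KD tumors, and the most abundant, *Pnpla2*, gave -0.15 (limma adjusted p = 0.122). The median log2 fold change of the 7 was 1.02, with 5 positive and 2 negative. The summed adipocyte level overlapped between groups, at 3762 to 4828 in CTL and 4078 to 4482 in KD tumors. Most of that sum was *Pnpla2* (mean 3481 in CTL and 3132 in KD tumors), so it says little about the other markers.

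Of 8 epidermal markers none was called higher and *Lor* was called lower (-1.94, limma adjusted p = 0.000195), with *Krt14* at 0.35 (limma adjusted p = 0.437). Over all genes the shares called were 6.2% higher and 3.97% lower. Of 10 fibroblast markers *Pi16* alone was called higher (1.34, limma adjusted p = 0.00886), and the most abundant, *Col1a1*, gave -0.76 (limma adjusted p = 0.0108). The median log2 fold change of the 10 was -0.47, with 7 negative and 3 positive. By the adjusted p alone 3 were lower and 2 higher. The summed levels, made up mostly of collagens, ran from 161978 to 264781 in CTL and from 76422 to 255393 in KD tumors. *Col1a1* read 94251 in KD 1, inside the control range of 70091 to 120652. In the other KD tumors it read 32352 to 69926.5, below all controls. Of 7 nerve sheath markers 2 were called higher and none lower, and 4 were higher by the adjusted p alone. Among those called was *S100b* (1.43, limma adjusted p = 3.03e-05), and the most abundant, *Mbp*, gave 0.16 (limma adjusted p = 0.112). Of 11 epithelial and lung tumor markers 6 were called higher and none lower, among them *Sftpb* (2.80, limma adjusted p = 0.0463), *Krt19* (1.65, limma adjusted p = 1.15e-05), *Epcam* (1.51, limma adjusted p = 5.79e-06) and *Krt8* (1.06, limma adjusted p = 0.000114).

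The summed level of the 24 general muscle genes ran from 3325 to 11842 in CTL and from 7830 to 76594 in KD tumors. The amount of host muscle taken with each tumor is not recorded in the labels, and its part in the group difference was not tested.

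Outside all lists, genes with at least 50 normalized counts on average were ranked by how like their group-centred log2 values were to the mean of the fast genes. Among the closest were *Mypn* (r = 0.971), *3425401B19Rik* (0.966), *Pdlim3* (0.960) and *Alpk3* (0.953), over 12 tumors. These 4 were higher in KD tumors, by 1.98 to 2.65 on the log2 scale. *Mypn*, *Pdlim3* and *Alpk3* encode proteins of striated muscle. Among those most like the mean of the slow genes were *Actr5* (0.959), *2810410L24Rik* (0.921), *Fbxl6* (0.912) and *Thsd1* (0.870). None of these 4 was called, with log2 fold changes from -0.22 to 0.12.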

How the data were processed

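The authors aligned reads to mm10 with STAR 2.5.2b, counted them per gene with featureCounts from Subread 1.5.2 and scaled them with DESeq2, per the labels. The deposited signal is a table of normalized counts for 15687 genes. Every value was a whole number of reads times a step of 0.865 to 1.49 in its tumor (100% of values, to within 0.01 of a read), so whole reads were recovered for edgeR 4.0.16 and DESeq2 1.42.0, chosen after seeing the data.

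Groups were compared with limma 3.58.1 (trend) on log2(normalized count + 1), which understates changes of low genes. Genes averaging under 5 were to be dropped, and none was. The test was tried on simulated data. Ratios were tested by exact two-sided permutation, whose smallest p is 0.00216. P-values treat the 6 tumors of a group as replicates. Gene names, exons and positions came from GENCODE for GRCm38, which matched 15655 IDs.

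The members and all lists were chosen with earlier results of these data known. From each list the text names up to 3 called genes per direction with the largest change and the most abundant gene, and the 5 genes most like each class; a few genes this rule names are not reported here. Cardiac and embryonic isoforms, *Adipoq*, *Nkx2-1*, *Sftpc* and *Ube2c* were added after their values were seen. Alternatives covered pseudocount, filter, scaling, trend, replicate block, muscle covariate, chromosome medians and leaving out each tumor.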

Additional observations from a re-analysis of the deposited data

Results flagged for a closer look

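In 30 groups of 6 tumors (10 fiber genes, 4 fast to slow ratios and the fast minus slow level, each in CTL and in KD tumors), 2 held a tumor farther from its neighbours than Dixon's test allows, and chance alone flags about 1 in 20 groups. *Tnnc1* in KD 2 stood at 6.50 on the log2 scale (89.5 normalized counts), and the next KD tumor was at 8.10. The log2 ratio of *Tnnt3* to *Tnnt1* in KD 3 was 4.26, and the next KD tumor was at 3.05.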

How the results depend on the processing

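Of the 5 fast genes called higher, 2 were called when limma ran without a trend, while all 4 slow genes were called under every setting except the muscle covariate. With the general muscle level as covariate the counts were 1 of 10, 0 fast and 1 slow, and *Myh4* (-1.03), *Tnnt3* (-0.78), *Tnni2* (-0.76) and *Tnnc2* (-0.81) changed sign; the covariate differed between groups itself. Leaving out each tumor in turn gave 6 to 10 fiber genes, 2 to 6 fast and 4 slow in every case. The fast count was 2 without CTL 2, CTL 3, CTL 5, KD 1, KD 3 or KD 4, 3 without CTL 1 or KD 5, and 6 without CTL 6 or KD 6. The ratio differences of troponin T and C lay near 0 and changed sign: *Tnnt3* to *Tnnt1* was 0.077 with a pseudocount of 8, and from -0.25 to 0.22 without 1 tumor, and *Tnnc2* to *Tnnc1* was 0.0062 with a pseudocount of 8, 0.34 with chromosome medians removed, and from -0.43 to 0.59 without 1 tumor. The *Myh4* to *Myh7* and *Tnni2* to *Tnni1* differences kept their sign in all 16 alternatives, the first running from -1.26 without KD 3 to -0.08 without KD 6. Both count tests on recovered reads called all 10 fiber genes, and 1635 (edgeR) and 1652 (DESeq2) genes in all, against 1596 by limma. Scaling to the same total left *Tnni2* just short (adjusted p = 0.0501). The replicate block changed no call, with *Myh4* at an adjusted p of 0.103 and the *Myh4* to *Myh7* ratio difference still at -0.70. Tumors with the same replicate number correlated from -0.269 to 0.0990 in their deviations from the group means and in no case best with each other, so the numbers were not treated as pairs. Depth set a floor of 3 reads, worth 3.15 normalized counts in CTL tumors on average, which every value of the fiber genes exceeded.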
